A study of Mus musculus with 74 samples.

Results

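Plin4 and 8 further genes of lipid droplets and of fatty acid use were followed through RNA-seq of mouse L4 dorsal root ganglia (DRG), the ganglia that hold the cell bodies of sensory neurons. The 9 genes, out of 53379 in the count files, were taken from a fixed list of symbols: the perilipins Plin4, Plin2, Plin3 and Plin5, and the PPAR-type targets Cpt1a, Angptl4, Pdk4, Acot1 and Acot2. Plin4 was chosen by its measured level in sorted neurons 1 day after spinal cord injury, against naive mice and against mice 1 day after nerve injury, so both of those comparisons are described here without a test. All 9 genes passed the filter on low counts in both experiments.

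Perilipins coat lipid droplets, the organelles in which cells store neutral lipid, and control the access of lipases to that store. Plin2 and Plin3 are found in most cell types, Plin5 in oxidative tissues such as heart, and Plin4 in fat and muscle. The nuclear receptors PPAR-alpha, PPAR-delta and PPAR-gamma pair with RXR, bind fatty acids and switch on genes for fatty acid storage and oxidation. Cpt1a admits long-chain fatty acids to mitochondria, Acot1 and Acot2 are acyl-CoA thioesterases of the cytosol and of mitochondria, Pdk4 restrains the use of glucose by pyruvate dehydrogenase, and Angptl4 is a secreted inhibitor of lipoprotein lipase. Pdk4 and Angptl4 also answer to glucocorticoids and to fasting.

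Whole DRG came from wild type female C57BL/6 mice aged 10-12 weeks, 4 of them uninjured and 4 taken 1 day after spinal cord injury (SCI), a dorsal hemisection at T9/10. Sorted cells came from female mice of the strain Thy1YFP16 aged 10-20 weeks, in which a Thy1 transgene drives YFP in large-diameter sensory neurons whose axons ascend the cord. YFP-positive cells were collected from 6 naive mice and from 4 mice each at 1 and 3 days (1d, 3d) after SCI or after crush of the sciatic nerve (SNI), with 3 wells per mouse as technical replicates. The genotype label carries a different line number in almost every sorted library, and those numbers were not used. Sorted libraries form 2 sets by their labels, FACS and FACS2018; naive mice 5 and 6 and mice 3 and 4 of each injured group belong to FACS2018. Whole DRG after SNI, in wild type and DLK knockout mice, is not analysed here.

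Each whole DRG mouse gave 21959030 to 44493319 reads on genes, and each mouse with sorted cells gave 30518187 to 83599972. Here levels are given as counts-per-million (CPM) of the reads on genes. The libraries did not all match their labels. In whole DRG, the 4 skeletal muscle markers summed to between 2.00 and 8.64 CPM in uninjured mice, and to 371, 2.83, 1.80 and 211 CPM in SCI mice 1 to 4. Among the 66 sorted wells, 20 held over 2% of reads on 9 glial markers (3.28 to 14.2%) with a median of 0.0235% on 4 neuronal markers, whereas the other 46 held 0.176 to 1.29% and a median of 2.67%. These 20 are called glia-rich wells. Of 14 mice with such a well, 12 also had other wells, and mouse 3 of SCI 3d and mouse 3 of SNI 3d had none.

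The sequences just upstream of Plin4 and Plin2 are shown because these genes carry the results below and are both perilipins. On GRCm38.p6 the RefSeq window of Plin4 is chr17:56109804-56110032 on the minus strand (229 bases, 64.6% GC), and that of Plin2 is chr4:86670061-86670309 on the minus strand (249 bases, 61.4% GC). Both are written 5′ to 3′ toward the gene, and capitals mark the match to a PPAR-RXR site.
Plin4: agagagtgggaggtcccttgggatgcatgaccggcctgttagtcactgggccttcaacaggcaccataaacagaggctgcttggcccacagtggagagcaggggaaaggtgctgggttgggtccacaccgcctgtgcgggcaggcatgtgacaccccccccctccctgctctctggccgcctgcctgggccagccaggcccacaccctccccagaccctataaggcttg
Plin2: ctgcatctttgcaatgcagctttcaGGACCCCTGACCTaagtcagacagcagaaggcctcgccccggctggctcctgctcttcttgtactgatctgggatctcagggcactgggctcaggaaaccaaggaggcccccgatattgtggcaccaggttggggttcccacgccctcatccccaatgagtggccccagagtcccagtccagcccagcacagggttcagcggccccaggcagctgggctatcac
The site searched was AGGTCA, any base, AGGTCA, on both strands with up to 2 mismatches. Of the 9 windows that RefSeq gave for 8 of the genes (Angptl4 is named only), Plin2 alone held a match, on the minus strand of the gene, at positions -225 to -213 from the start, with 2 mismatches. Of all 32817 promoter windows, 3.23% held one, so 1 match among 9 windows is described and not read further. A second search, for the glucocorticoid receptor palindrome AGAACA, any 3 bases, TGTTCT, again with up to 2 mismatches, found 1.55% of all promoters and none of the windows of these genes.

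In whole DRG 1 day after SCI, Plin4 (chromosome 17, 56100591 to 56109803 on GRCm38) was higher in every injured mouse than in any uninjured one, while the other perilipins did not pass the test. Plin4 was at 2.82, 1.84, 2.87 and 5.52 CPM in uninjured mice and at 36.4, 41.4, 38.4 and 27.0 CPM after SCI. The lowest SCI mouse stood well above the highest uninjured mouse. The log2 fold change was 3.44 ± 0.28 (SE, n = 4 and 4; adjusted p = 0.000535 by edgeR's quasi-likelihood test with Benjamini-Hochberg adjustment over 17616 genes, called below 0.1). Plin4 was picked for its change in sorted cells after the same injury, which is a separate set of mice, but whole DRG results were known when the list was made.

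SCI mice 2 and 3, with muscle sums as low as in uninjured mice, had the 2 highest Plin4 levels, and without mice 1 and 4, in a fit added after the data were seen, the log2 fold change was 3.58 (adjusted p = 0.00614, edgeR). Fat cells are another tissue rich in Plin4. The 6 fat markers summed to 0.417 to 1.09 CPM in uninjured and 0.672 to 3.04 CPM in SCI mice, with Adipoq at 0 to 4 and 3 to 10 reads, and Lep at 0 in 3 of 4 mice of each group. The 4 red blood cell markers summed to 12.3 to 19.2 CPM in uninjured mice and to 57.8, 85.0, 66.5 and 19.3 CPM in SCI mice 1 to 4. The 4 macrophage markers summed to 27.3 to 38.6 CPM in uninjured mice and to 39.95 to 43.2 CPM after SCI, without overlap. The part of fat cells, blood and macrophages in the Plin4 level was not tested. Glial (6917 to 7466 and 6018 to 7488 CPM), neuronal, endothelial and fibroblast marker sums overlapped between the groups. In bulk tissue a change in the number of cells of a type and a change in the RNA of each cell cannot be told apart.

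The ubiquitous perilipins were level. Plin2 was at 52.1, 56.5, 59.3 and 55.8 CPM in uninjured mice and at 55.7, 54.4, 43.5 and 52.9 CPM after SCI. Its log2 fold change was -0.13 ± 0.08 (SE; adjusted p = 0.51, edgeR). Plin3 ranged from 31.7 to 38.0 CPM and from 30.0 to 35.2 CPM, with a log2 fold change of -0.12 (adjusted p = 0.528). For both genes the groups overlapped. Plin5, the neighbour of Plin4 on the same strand of chromosome 17, was near the floor in both groups, at 0.286 to 0.455 CPM in uninjured and 0.254 to 0.976 CPM in SCI mice (log2 fold change 0.51, adjusted p = 0.635). Its sign rested on SCI mouse 1, without which the log2 fold change was -0.01.

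**Figure D1:**
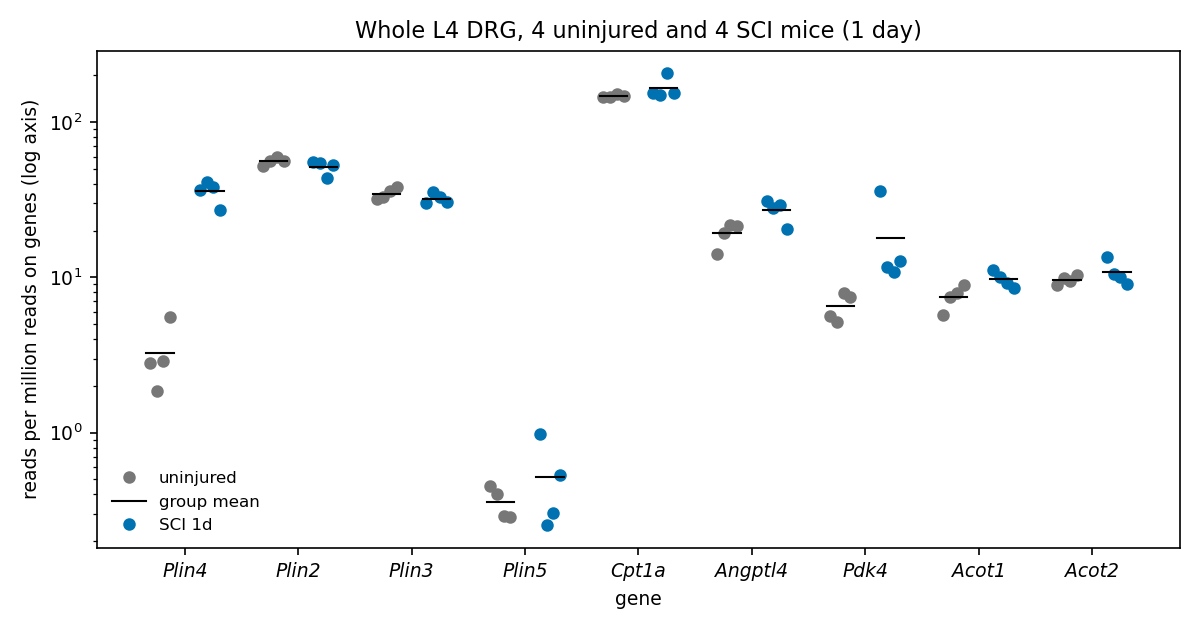
Levels of the 9 genes in whole DRG, in CPM on a log axis, with one point per mouse and bars for the group means, for 4 uninjured mice and 4 mice 1 day after SCI. Plin4 separates completely between 1.84 to 5.52 and 27.0 to 41.4 CPM, while Plin2, Plin3 and Cpt1a lie side by side.

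Among the PPAR-type targets, Pdk4 and Angptl4 were the next highest, and none was called. Pdk4 was at 5.65, 5.15, 7.94 and 7.45 CPM in uninjured mice and at 36.1, 11.7, 10.9 and 12.8 CPM after SCI. No SCI mouse overlapped an uninjured one, but mouse 1, which also had the highest muscle marker sum, stood far above the rest. The log2 fold change of Pdk4 was 1.43 ± 0.37 (SE; adjusted p = 0.116, edgeR), and without the 2 mice with muscle markers it was 0.76 (adjusted p = 0.124). Without mouse 1 alone it was 0.83 and was called (adjusted p = 0.0839), as it was without mouse 3 (1.62, adjusted p = 0.0717). Muscle is rich in Pdk4, and its part in the remaining difference was not tested.

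Angptl4 was at 14.2, 19.4, 21.8 and 21.5 CPM in uninjured mice and at 31.1, 28.1, 29.3 and 20.5 CPM after SCI. SCI mouse 4 lay within the uninjured range and the other 3 above it. The log2 fold change was 0.49 ± 0.15 (SE; adjusted p = 0.174, edgeR), and 0.59 without mouse 4, when it was called (adjusted p = 0.0894). DESeq2, the tool used by the authors, called both Pdk4 and Angptl4 beside Plin4, among 929 of 17616 genes tested.

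The genes of fatty acid oxidation moved little. Cpt1a was at 145 to 151 CPM in uninjured mice and at 154, 150, 206 and 153 CPM after SCI, so that one mouse gave most of its log2 fold change of 0.16 ± 0.10 (SE; adjusted p = 0.504, edgeR). Acot1 ranged from 5.74 to 8.88 CPM and from 8.51 to 11.2 CPM (log2 fold change 0.35, adjusted p = 0.268), and Acot2 from 8.97 to 10.4 CPM and from 9.10 to 13.4 CPM (0.14, adjusted p = 0.656). For both thioesterases the ranges overlapped. Acot1 and Acot2 are close paralogs beside each other on chromosome 12, and reads may be shared between them or lost, so their levels are uncertain.

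In all, 1 of the 9 genes was called in whole DRG, against 2.32% of all genes tested (1.38% called higher). An unadjusted p under 0.05 (edgeR) was found for 4 of 9, against 2570 of all 17616 genes tested. For 2 of 9, Plin4 and Pdk4, every SCI mouse lay above every uninjured mouse, which held for 5.48% of all genes tested.

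Compared per length of exon, Cpt1a was the most abundant of the 9 in uninjured whole DRG, at 19.2 ± 0.35 CPM per kilobase (SD, n = 4), followed by Plin2 at 15.9 ± 0.84, Plin3 at 9.13 ± 0.76, Angptl4 at 5.43 ± 1.00, Acot2 at 4.40 ± 0.27, Acot1 at 1.92 ± 0.34, Pdk4 at 1.86 ± 0.39, Plin4 at 0.565 ± 0.27 and Plin5 at 0.172 ± 0.04. Angptl4 and Acot2 overlapped in this order, as did Acot1 and Pdk4. After SCI, Plin4 reached 6.20 ± 1.08 by the same measure, between Angptl4 (7.70 ± 1.32) and Pdk4 (5.08 ± 3.46), whose ranges it overlapped. Thus a perilipin that was next to last in uninjured ganglia stood amid the other targets 1 day after SCI, still below Plin2 and Plin3.

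In the wider pathway lists, edgeR called few genes in whole DRG. These lists were written with earlier results of these data known, so calls in them are not independent of that choice. They are described by counts and by the genes called, and no list was tested as a set. Over all genes tested, 2.32% were called (1.38% higher), and the median log2 fold change was 0.01. Of 26 further lipid droplet genes, 21 were tested and 1 was called: Cidea, a droplet fusion protein of brown fat, was higher (log2 fold change 0.94 ± 0.15, SE; adjusted p = 0.0227, edgeR). The median of that list was 0.04, 8 of the 21 had an unadjusted p under 0.05, and DESeq2 called 3 higher and 1 lower. Of 41 further genes of fatty acid oxidation and PPAR-type targets, 34 were tested and 1 was called: Fabp4, a fatty acid carrier of fat cells and endothelium, was higher (1.57 ± 0.30; adjusted p = 0.0408), with a median of 0.06. In that list 5 genes had an unadjusted p under 0.05, and DESeq2 called 2 higher. Over all genes tested, 2570 of 17616 had an unadjusted p under 0.05, and DESeq2 called 929. The Fabp4 call was lost without the 2 mice with muscle markers, without SCI mouse 1 and without uninjured mouse 2. Among 14 PPAR and RXR receptors and coactivators edgeR called 0, with 1 at an unadjusted p under 0.05 and 0 called by DESeq2. Ppara, Ppard and Pparg had log2 fold changes of 0.07, -0.07 and 0.27.

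The list of glucocorticoid-responsive genes, also written with earlier results of these data known, held the most calls. Of 16, all tested, 9 were called higher and 0 lower, against 1.38% of all genes tested called higher. Their median log2 fold change was 0.59, and 15 were positive. Because of how the list was made, these counts are a description. Mt2, a metallothionein, rose by 1.87 ± 0.27 (SE; adjusted p = 0.0131, edgeR), the transcription factor Zbtb16 by 1.17 ± 0.10 (adjusted p = 0.000535), and the receptor co-chaperone Fkbp5 by 0.56 ± 0.10 (adjusted p = 0.0358). Mt1, Per1, Cebpd, Cdkn1a, Nfkbia and Dusp1 were the others called. The receptor gene itself, Nr3c1, was the one negative value, at -0.23 (adjusted p = 0.189). The number called was 7 without the 2 mice with muscle markers, 2 without SCI mouse 2 or without uninjured mouse 3, 3 without uninjured mouse 2, and 5 without uninjured mouse 4, SCI mouse 1 or SCI mouse 4. Over all genes tested, calls also fell in these fits, from 408 to 232, 169, 104, 105, 145, 149 and 314 in the same order. The median of the list lay between 0.50 (without SCI mouse 2) and 0.68 (without the 2 mice with muscle markers).

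**Figure D2:**
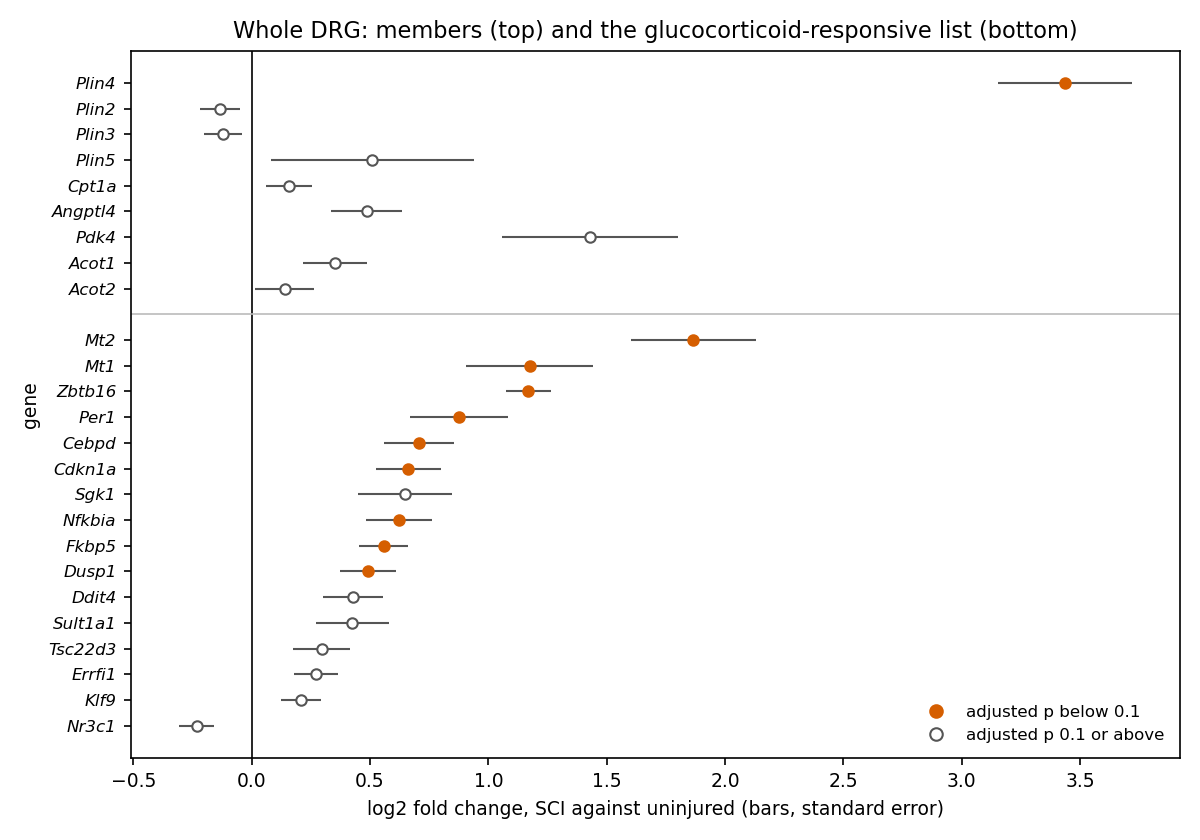
Log2 fold change (horizontal axis) of each of the 9 genes in whole DRG 1 day after SCI against uninjured (top) and of the 16 glucocorticoid-responsive genes (bottom), with bars for the SE (edgeR, n = 4 and 4) and filled points for an adjusted p below 0.1. Plin4 stands alone at 3.44 among the 9, while 15 of the 16 glucocorticoid-responsive genes lie above 0.

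By level across the 8 whole DRG libraries, the genes most like Plin4 were Cbs (Pearson's r = 0.995 on log2 CPM), E030037K01Rik (0.990), Serpina3i (0.987), Zbtb16 (0.981) and Serpina3n (0.981), out of 17615 others. Cbs makes cystathionine from homocysteine, and the Serpina3 genes encode secreted protease inhibitors of the acute phase. Among the 8 other listed genes, Pdk4 (0.775), Angptl4 (0.773) and Acot1 (0.764) were closest and Plin2 was at -0.55. By Spearman's rho 1 of these 5 (Cbs) was again among the top 5, with Klf15, Phyhd1, Galnt16 and Gm26792 in place of the others. The points share the step between uninjured and SCI mice, and no p is given.

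In sorted cells Plin4 was nearly absent from naive mice and present in every mouse 1 day after SCI. Naive mice held 0, 0, 0, 0, 1 and 3 Plin4 reads, or at most 0.0629 CPM. Mice 1 to 4 of SCI 1d held 2178, 1841, 5520 and 294 reads, or 55.97, 48.8, 118 and 4.62 CPM. The groups did not overlap. With reads summed over mice, SCI 1d stood 4523-fold above naive (95% exact interval 1766 to 16600, for counting error only), a description of the values by which Plin4 was chosen.

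That level sat mostly in wells with glial RNA. In SCI 1d the 3 glia-rich wells, one each from mice 1, 2 and 3, held 256, 254 and 349 CPM of Plin4. The 9 other wells, with neuronal marker shares of 2.29 to 2.86%, held between 0.0666 and 21.1 CPM with a median of 1.198, and each had at least 1 Plin4 read. The glia-rich wells thus carried 95.5% of the Plin4 signal summed over wells. Setting glia-rich at over 5% of reads, or at more glial than neuronal marker reads, picked the same 3 wells, so the share could not change.

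Glial RNA did not come with Plin4 in naive mice. All 6 glia-rich naive wells had 0 Plin4 reads, and 2 of 12 other naive wells had any, at up to 0.194 CPM. Mouse 4 of SCI 1d had no glia-rich well and held 0.230, 5.45 and 9.20 CPM in its 3 wells. Without glia-rich wells, SCI 1d kept 648 reads and stood 272-fold above naive (95% exact interval 106 to 1002, for counting error only). The lowest of these other wells overlapped the naive range, and their median did not. Whether the reads in neuron-rich wells came from neurons or from glial RNA in the same well was not tested.

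**Figure D3:**
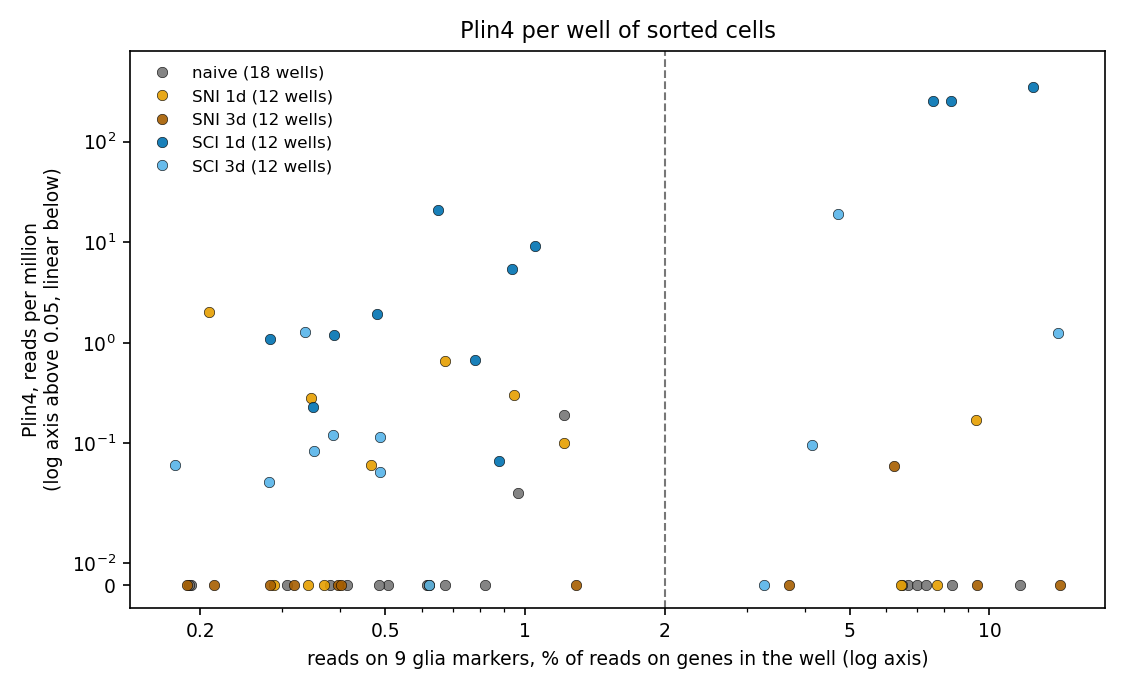
Plin4 in each sorted well (CPM, log axis that turns linear near 0) against the percent of the well's reads on 9 glial markers (log axis), coloured by group. The 3 SCI 1d wells above 2% glial reads stand at 254 to 349 CPM, the 9 others at 0.0666 to 21.1 CPM, and the 6 glia-rich naive wells at 0.

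At 3 days after SCI, Plin4 was lower and uneven, with 0.479, 0.0788, 4.75 and 0.356 CPM in mice 1 to 4 (40, 4, 299 and 18 reads). Every mouse lay above every naive mouse, mouse 2 only narrowly, with 4 reads (0.0788 CPM) against 3 (0.0629 CPM) in naive mouse 6. Mouse 3, which stood highest, had glia-rich wells alone, and 297 of its 299 reads came from 1 well. The fitted log2 fold change against naive was 6.15 ± 1.08 (SE; adjusted p = 0.171 by edgeR with 2 RUVr factors), a size that depends on the prior count because naive counts are near 0, against the same naive mice on which Plin4 was chosen. The ratio of summed reads was 126 (95% exact interval 48.6 to 463, for counting error only). Without glia-rich wells it was 17.3 (6.32 to 66.4), with 40 of the 45 reads from mouse 1. In those wells mouse 1 (0.479 CPM) lay above the naive mice. Mice 2 and 4, at 0.0788 and 0.0271 CPM, lay inside the naive range of up to 0.194 CPM.

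After nerve injury Plin4 was low. At SNI 1d it was at 0.0222, 0, 0.188 and 0.459 CPM (1, 0, 15 and 14 reads), and at SNI 3d at 0, 0, 0.0171 and 0 CPM, a single read. In SNI 1d, mice 3 and 4 lay above the naive mice and mice 1 and 2 within their range. The ratio of summed reads of SNI 1d to naive was 13.5 (95% exact interval 4.77 to 52.8). That interval covers counting error only and not the spread between mice, so it is not a test. The 2 mice that carry the ratio are both of set FACS2018, as are the 2 naive mice with any read. No test is given, since both groups were part of the choice of Plin4, and no naive or SNI 1d mouse reached the 20 reads by which Plin4 passed the filter through SCI mice. For SNI 3d, with 1 read against 4 in naive mice, the ratio was 0.399 (0.00811 to 4.04, again for counting error only), and nothing is read from it.

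Set against each other at 1 day, SNI held 30 Plin4 reads in 4 mice and SCI 9833, and the lowest SCI mouse (4.62 CPM) lay above the highest SNI mouse (0.459 CPM). This pair of groups was also part of the choice of Plin4 and is given without a test. At 3 days the counts were 1 and 361 reads, with every SCI mouse above every SNI mouse. The fitted log2 difference of SNI from SCI was -8.21 ± 1.57 (SE; adjusted p = 0.569, edgeR). Plin4 passed the filter through SCI mice, and nothing is read from this p.

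**Figure D4:**
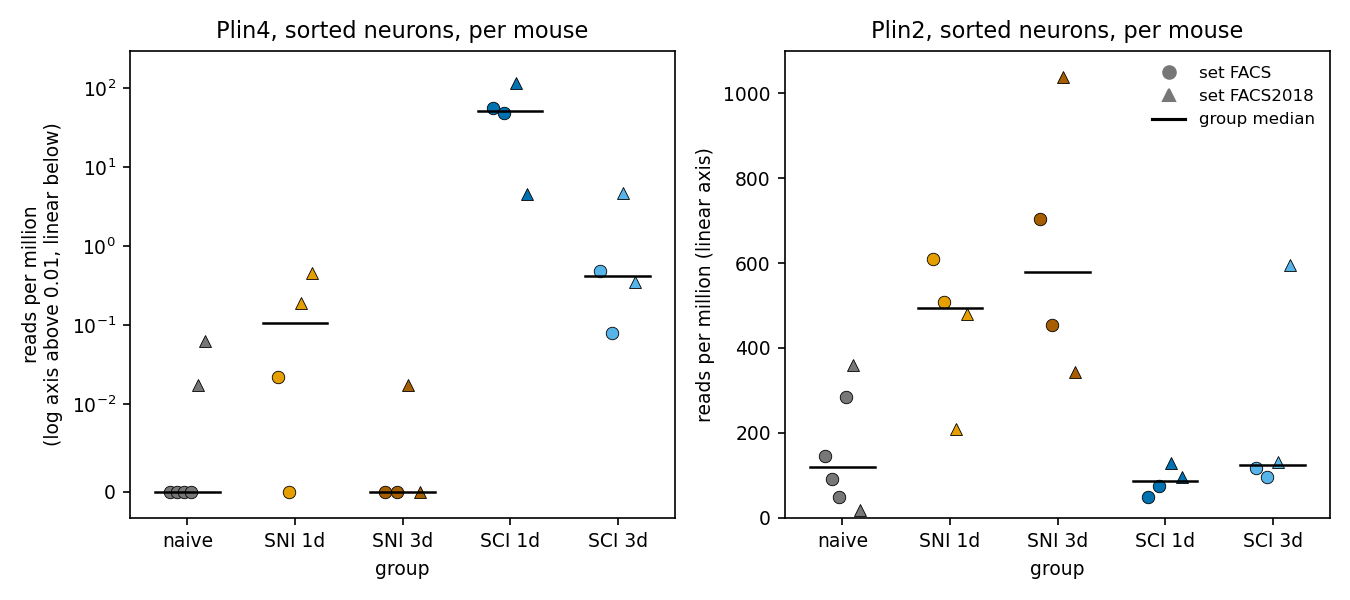
Plin4 and Plin2 in sorted cells of each mouse (sum of 3 wells, CPM) for naive, SNI and SCI at 1 and 3 days, on an axis that is logarithmic away from 0 for Plin4 and linear for Plin2. Marker shapes are the 2 sets and lines the group medians. Plin4 is highest in the 4 SCI 1d mice (4.62 to 118 CPM), and Plin2 is highest after SNI (208 to 1039 CPM).

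Plin2, the droplet coat found in most cell types, followed another order. Naive mice ranged from 19.4 to 359 CPM with a median of 119. Plin2 was at 609, 509, 208 and 481 CPM at SNI 1d and at 704, 453, 1039 and 343 CPM at SNI 3d. At each SNI time 3 of 4 mice stood above all naive mice, and the remaining mouse within their range.

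After SCI, Plin2 was at 48.1, 75.5, 129 and 96.9 CPM at 1 day and at 118, 96.1, 131 and 596 CPM at 3 days. All SCI 1d mice and 3 of 4 SCI 3d mice lay inside the naive range. The log2 fold change was 1.63 ± 0.59 (SE; adjusted p = 0.216, edgeR) for SNI 1d, 2.21 ± 0.62 (adjusted p = 0.147) for SNI 3d, and 0.78 (adjusted p = 0.691) for SCI 3d, the last changing sign without mouse 4. For SCI 1d it was -0.78, given without a test. Between SNI 3d and SCI 3d the difference was 1.43 (adjusted p = 0.591).

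Within the set FACS, Plin2 lay between 453 and 704 CPM in the 4 SNI mice and between 49.1 and 284 CPM in the 4 naive mice, without overlap. Within FACS2018 the groups overlapped, with the 2 naive mice at 359 and 19.4 CPM, the 2 SNI 1d mice at 208 and 481 CPM and the 2 SNI 3d mice at 1039 and 343 CPM. On log2(CPM + 1), SNI 1d exceeded naive by 2.24 in FACS and 1.89 in FACS2018, and SNI 3d by 2.26 and 2.80, and the FACS2018 values rest on naive mouse 6, since naive mouse 5 lay above 1 of the 2 mice at each SNI time. Without glia-rich wells, Plin2 was at 244 to 644 CPM in 4 SNI 1d mice and 343 to 777 CPM in 3 SNI 3d mice against 49.1 to 284 CPM in naive mice. In that fit it was called at both times (adjusted p = 0.0575 and 0.0717, edgeR). The same fit called 1848 of 22620 genes tested at SNI 1d and 1712 at SNI 3d, against 161 and 166 of 23507 in the main fit. Over all groups the median of Plin2 was 68.5 CPM in glia-rich wells and 115 CPM in the others, with the glia-rich mean higher in 4 of 12 mice that had both kinds. Within SCI 1d the medians lay the other way, at 126 and 79.2 CPM, and the 3 glia-rich wells held 31.6% of the Plin2 signal summed over wells.

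The other 7 genes in sorted cells are given by level alone, since 21 of their 28 fitted changes in the tested comparisons turned sign under at least 1 alternative. Plin3 tracked the glia-rich wells, with a median of 28.4 CPM there and 3.15 CPM in the others, higher in 11 of 12 mice. Acot2 did so as well (66.1 and 14.8 CPM, 11 of 12 mice). Angptl4 had medians of 29.5 and 4.08 CPM, with the glia-rich mean higher in 9 of 12 mice, but its order differed between groups. In naive mice its medians were 0.814 CPM in glia-rich and 2.29 CPM in other wells, and in SCI 1d 0.142 and 9.66 CPM. In SCI 3d, SNI 1d and SNI 3d the glia-rich median was the higher one. Plin5 had 0 reads in all 20 glia-rich wells and in 35 of 46 others. Its level in a mouse was never above 3.52 CPM.

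Cpt1a was present in every well, at 41.3 CPM in glia-rich and 57.9 CPM in other wells by the median. Its mouse medians were 78.8 CPM in naive, 65.4 in SCI 1d, 64.7 in SCI 3d, 60.8 in SNI 1d and 59.1 in SNI 3d, within the naive range of 16.5 to 145 CPM. Pdk4 was sparse, with mouse medians of 4.73 CPM in naive, 11.9 in SCI 1d, 1.49 in SCI 3d, 1.52 in SNI 1d and 1.69 in SNI 3d. Over all wells its median was 0.0938 CPM in glia-rich wells and 0.883 CPM in the others, with the glia-rich mean higher in 6 of 12 mice, while within SCI 1d the 3 glia-rich wells held 24.1 to 49.6 CPM and the 9 others a median of 1.99. Acot1 had a median of 0 in both kinds of well and exceeded 4 CPM in no mouse but SCI 3d mouse 3, at 23.4 CPM. Across all of these genes the ranges of the injured groups overlapped those of naive mice.

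Counts of calls in sorted cells were low. At SNI 1d, edgeR called 1 of the 9 genes and 0.685% of 23507 genes tested. That gene is Plin4, and nothing is read from the count, because Plin4 was chosen on these naive and SNI 1d mice and passed the filter through SCI mice. At SNI 3d edgeR called 0 of 9, against 0.706% of all genes, with 1 of 9 and 2992 genes at an unadjusted p under 0.05. DESeq2 called 1 of 9 (Plin2) and 2250 genes there. At SCI 3d edgeR called 0 of 9 and 0% of all genes, with 1 of 9 and 2208 genes at an unadjusted p under 0.05, while DESeq2 called 2 of 9 (Plin4 and Acot1) and 1202 genes. Between SNI 3d and SCI 3d edgeR called 0 of 9 and 0% of all genes, with 2 of 9 and 1990 genes at an unadjusted p under 0.05. DESeq2 called 1 of 9 (Plin4) and 989 genes there. Nothing is read from these Plin4 calls either. The SCI 3d call rests on the naive mice on which Plin4 was chosen, and in both comparisons Plin4 passed the filter through SCI mice.

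Across the 22 sorted mice, the genes most like Plin4 were Dpep1, a membrane dipeptidase (Pearson's r = 0.826 on log2 CPM), Calb2, the calcium buffer calretinin (0.793), the cytokine receptor gene Il17rb (0.704), Dcaf11 (0.691) and Adamtsl4 (0.669), out of 16391 others. By rank, 2 of these 5 (Calb2 and Dpep1) were again among the top 5. Calb2 was at 0.565 to 563 CPM in SCI 1d mice and at most 0.0629 CPM in naive mice, and Dpep1 at 9.09 to 101 and at most 3.54 CPM. In SCI 3d mice Calb2 ranged from 0 to 74.7 CPM (median 0.138) and Dpep1 from 0.0985 to 122 CPM (median 0.157). After SNI, Calb2 reached at most 5.45 CPM and Dpep1 at most 0.205 CPM. None of the genes most like Plin4 in whole DRG was among the top 5 in sorted cells. Genes averaging under 20 reads per mouse were not ranked there. Cbs and E030037K01Rik, with at most 54 and 7 reads in a sorted mouse, fell under that mean, so neither could appear. The points share libraries with and without glia-rich wells, and no p is given.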

How the data were processed

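The authors trimmed reads with cutadapt, aligned them to mm10 with STAR 2.5.3a and counted reads per gene with HTSeq 0.6.1. The deposited counts are whole reads without normalization, and the strand setting of the counting is not given in the sources used here. Lines naming no gene, 33.1 to 66.9% of counted lines, were left out. The authors' 7 tables of comparisons hold DESeq2 fold changes and p-values, and neither these nor their 123 columns of values per sample were used.

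The members and lists were chosen with earlier results of these data known. The text names the members, the list genes called, and the 5 genes most like Plin4 in each experiment. Symbols came from GENCODE vM21. The 3 wells of a mouse were summed, naive mice of all labelled days were pooled, and all 22 mice were kept although the study removed outliers. Genes averaging 10 reads or more (whole DRG) or reaching 20 reads in a mouse (sorted) were tested with edgeR 4.0.16 (TMM, quasi-likelihood) in R 4.3.3, in sorted cells over 22 mice with 2 RUVr factors from centred deviance residuals. DESeq2 1.42.0 was an alternative. The fits were tested on simulated data. No pair of libraries in a group agreed within sampling noise. P-values set the difference between groups against the spread between mice. In sorted cells that is the spread left by the 2 RUVr factors.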

Additional observations from a re-analysis of the deposited data

Results flagged for a closer look

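In 63 groups of a gene, 16 had 1 mouse that stood apart from the others of its group by Dixon's criterion. Its chance rate of about 1 in 20 is for normally distributed values, and it was applied here to CPM. A group with reads in 1 mouse alone is always flagged, as for Plin5 and for Plin4 in SNI 3d. The count is therefore not read as an excess over chance. Of the 16 flagged mice, 8 are mouse 3 of SCI 3d or mouse 3 of SNI 3d, the 2 mice with glia-rich wells alone. In SCI 3d mouse 3 they are Plin4 at 4.75 CPM, Plin3 at 54.2 CPM, Pdk4 at 40.5 CPM and Acot1 at 23.4 CPM. In SNI 3d mouse 3 they are Plin4 at 0.0171 CPM (a single read), Plin3 at 58.1 CPM, Angptl4 at 51.4 CPM and Acot2 at 54.3 CPM. SCI 3d mouse 3 also had a fibroblast marker sum of 45970 CPM and a macrophage marker sum of 343 CPM, the highest of the sorted mice.

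In whole DRG, SCI mouse 1 stood apart for Pdk4 at 36.1 CPM, beside a muscle marker sum of 371 CPM, and SCI mouse 3 for Cpt1a at 206 CPM, with a muscle marker sum of 1.80 CPM. In sorted cells, naive mouse 6 stood apart for Plin3 at 70.7 CPM and for Plin4 at 0.0629 CPM (3 reads). SCI 3d mouse 4 stood apart for Plin2 at 596 CPM, most of it from 1 well without glial excess at 1528 CPM. Plin5 was flagged in naive mouse 4 at 1.89 CPM, in SCI 1d mouse 4 at 3.52 CPM and in SCI 3d mouse 1 at 0.0479 CPM, in groups where most mice had 0 reads.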

How the results depend on the processing

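In whole DRG the Plin4 rise held its direction and its call in every fit run, at log2 fold changes of 3.22 to 3.84 with single mice left out. Members called there numbered 1, and 3 with DESeq2 or with no filter on low counts, which add Pdk4 and Angptl4, and 1 to 2 with single mice left out (2 without SCI mouse 1, 3 or 4). The fit without the 2 SCI mice with muscle markers was chosen after seeing the data: Plin5 then turned from 0.51 to -0.34, and with single mice left out it ranged from -0.01389, without SCI mouse 1, to 0.75. All genes called, 408, numbered 929 with DESeq2 and 549 with no filter on low counts. With single mice left out they numbered 104 (without uninjured mouse 3) to 640 (without SCI mouse 3).

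In sorted cells at SNI 1d, the 1 member called (Plin4, from which nothing is read) became 0 at a threshold of 0.05, with no filter, with 0 or 1 RUVr factors, with uncentred residuals, with the set as a term, with the replicate block and with naive mice of the same day, became 2 without glia-rich wells, and ranged from 0 to 1 with single mice left out. The genes called at SNI 1d went from 161 to 1539 with DESeq2, to 1848 without glia-rich wells and to 0 without RUVr factors, with the set or with the block, and lay between 5 and 339 with single mice left out. At SNI 3d, 0 became 1 (Plin2) with DESeq2 or without glia-rich wells, and 0 to 1 with single mice left out (1 without naive mouse 4). The genes called at SNI 3d went from 166 to 2250 with DESeq2 and to 1712 without glia-rich wells. At SCI 3d, 0 became 2 with DESeq2 and 1 with no filter, and stayed at 0 with single mice left out. Between SNI 3d and SCI 3d, 0 became 1 (Plin4) with DESeq2. Nothing is read from the Plin4 calls in these 2 comparisons, for which it passed the filter through SCI mice. Plin2 at SCI 3d, at 0.78, ranged from -0.29, without SCI 3d mouse 4, to 1.28 with single mice left out. The cause was not tested.

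The fitted Plin4 value for SCI 1d, 12.61, was 9.21 without glia-rich wells and 12.15 to 13.73 with single mice left out. For SNI 1d against SCI 1d it was -8.21, and -10.06 with the set, -9.53 with the replicate block, -5.20 without glia-rich wells and -9.75 to -7.80 with single mice left out.

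Replicate numbers did not pair the whole DRG mice (correlations of deviations -0.16, 0.05, -0.03 and 0.26). The replicate block kept 1 member called in whole DRG (Plin4, log2 fold change 3.50, adjusted p = 0.0165, edgeR).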

Other observations

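In sorted cells at SNI 1d, edgeR called 1 of 36 tested genes of fatty acid oxidation and PPAR-type targets: Slc25a20, the mitochondrial carnitine carrier that follows Cpt1a in the import of fatty acids, with a log2 fold change of 2.20 ± 0.48 (SE; adjusted p = 0.0623, edgeR). Of 16 glucocorticoid-responsive genes 1 was called, Tsc22d3, which was lower at -1.24 ± 0.31 (adjusted p = 0.0999, edgeR). Over all genes tested at SNI 1d, 0.685% were called. These 2 calls were not followed under the alternatives. Without RUVr factors, with the set as a term or with the replicate block, 0 genes were called at SNI 1d. In whole DRG 1 day after SCI the same 2 genes had log2 fold changes of 0.21 and 0.30 and were not called (adjusted p = 0.323 and 0.295). The difference between the 2 experiments was not tested.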
